A study of Mus musculus with 6 samples.

Results

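The interferon regulatory factors (IRFs) are transcription factors that share a DNA-binding domain for repeats of GAAA, found in the interferon-stimulated response element (ISRE) of interferon and interferon-induced genes. IRF3, IRF5 and IRF7 are switched on by phosphorylation downstream of Toll-like receptors and drive interferon genes, IRF9 completes the interferon-activated ISGF3 complex, and IRF1, IRF2, IRF4 and IRF8 are controlled largely through how much of them is made. IRF8 is a lineage factor of macrophages and dendritic cells that works with PU.1. The 8 IRF genes studied here, *Irf1*, *Irf2*, *Irf3*, *Irf4*, *Irf5*, *Irf7*, *Irf8* and *Irf9*, were taken as all non-control spots whose gene name equals one of these names. This gave 9 probes on 9 spots for 8 of 34787 gene names, among 55681 probes on 59305 spots, and no further probe was tied to these genes by its transcript accession alone (0 probes).

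Expression was measured on 1-color Agilent mouse arrays in bone marrow–derived macrophages (BMDMs) of wild-type female mice, with the strain written C57/B6 or C57BL/6 in the labels and C57BL6/J in the methods and an age of 6 to 8 weeks in the labels that the methods give as older, grown for 7 days in L929-conditioned medium. The 3 groups, with 2 arrays each from independent experiments, were untreated cells, cells given LPS for 4 h (LPS), and cells given 10 μM HBX41,108, an inhibitor of the deubiquitinase USP7, for 30 min before LPS for 4 h (LPS+USP7i). LPS, a bacterial cell wall component, activates TLR4. Its dose is 100 ng/ml in the series description and 100 ng/μl in the sample labels, and neither source says whether cells without the inhibitor received its solvent. No group received the inhibitor without LPS.

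All 6 arrays lay on 1 slide and were read in 1 scan. Of the 2 indices of an array's slide position, one differed between the groups, so that it and treatment cannot be told apart, and the other equalled the replicate number. Between 25002 and 27467 spots per array were well above background and 0 were saturated. The 8 macrophage markers examined were well above background on all arrays. Their summed processed signal, before normalization, ran from 631627 to 775689 in untreated cells, 535315 to 643206 after LPS and 456101 to 519802 under LPS+USP7i. The 75th percentile of all spots read 324.5 and 458.1 in untreated cells, 241.1 and 288.4 after LPS, and 233.1 and 268.2 under LPS+USP7i. Of 6 markers of dendritic cells, another cell type that makes IRF8, *Flt3*, *Xcr1*, *Clec9a* and *Cd209a* were well above background on 0 arrays and *Ccr7* on all 6, and *Zbtb46* was so on the 4 arrays of LPS-treated cells, with or without the inhibitor, and on neither untreated array. With bulk RNA, fewer cells of a type and less RNA per cell cannot be told apart. *Usp7* itself, the gene of the inhibitor's target, read 11.95 and 11.98 in untreated cells, 12.41 and 12.40 after LPS, and 12.11 and 12.43 under LPS+USP7i on the log2 scale (limma, adjusted p = 0.627 for the inhibitor). The values below are log2 quantile-normalized intensities, and a gene was called where limma's adjusted p was under 0.05. Because brightness depends on the probe, levels are compared only within a probe.

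Each probe has a position on the mm9 build. The bright *Irf1* probe (transcript NM_008390) lies at chr11:53590746-53590805, and a dim *Irf1* probe (NM_001159393) lies further along the same strand at chr11:53591817-53591876. The *Irf2* probe is at chr8:47932486-47932545, *Irf3* at chr7:52257700-52257759, *Irf4* at chr13:30858532-30858591 and *Irf5* at chr6:29486901-29486960. The *Irf8* probe is at chr8:123280324-123280383 and *Irf9* at chr14:56228806-56228865. The *Irf7* probe, on the minus strand, runs over 351 bases at chr7:148450664-148451014. An exon annotation of this build was not used here.

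The 250 bases before the annotated starts of the 8 genes were read from RefSeq promoters on GRCm38.p6, and 11 such windows were found. They were searched on both strands for the tandem GAAA core of IRF sites and the ISRE (GAAANNGAA), the STAT-binding GAS element (TTCNNNGAA), the consensus κB site of NF-κB, and a PU.1 core (GAGGAAGT or AGAGGAAG). Matches fell in 1 window each of *Irf1*, *Irf2* and *Irf8*, which are shown because these are the genes for which at least 1 probe was lower with the USP7 inhibitor. Capitals mark the matches.
*Irf1*, chr11:53769764-53770013, plus strand: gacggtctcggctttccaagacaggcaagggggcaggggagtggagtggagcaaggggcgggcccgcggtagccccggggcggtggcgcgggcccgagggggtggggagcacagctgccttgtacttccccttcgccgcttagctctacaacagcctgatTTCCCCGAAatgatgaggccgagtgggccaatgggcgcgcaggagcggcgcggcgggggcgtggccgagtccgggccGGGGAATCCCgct
*Irf2*, chr8:46739495-46739744, plus strand: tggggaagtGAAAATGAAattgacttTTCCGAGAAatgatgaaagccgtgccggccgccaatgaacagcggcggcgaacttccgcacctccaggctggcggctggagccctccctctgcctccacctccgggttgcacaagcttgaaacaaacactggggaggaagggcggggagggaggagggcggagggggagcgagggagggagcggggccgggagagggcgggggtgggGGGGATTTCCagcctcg
*Irf8*, chr8:120736108-120736357, plus strand: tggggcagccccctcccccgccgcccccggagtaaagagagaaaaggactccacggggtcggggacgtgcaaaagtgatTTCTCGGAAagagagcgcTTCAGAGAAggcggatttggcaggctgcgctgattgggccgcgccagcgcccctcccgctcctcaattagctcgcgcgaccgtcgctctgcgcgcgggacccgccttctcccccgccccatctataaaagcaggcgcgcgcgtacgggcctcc

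The *Irf1* window held a GAS match from base −90 to −82 and a κB match from −13 to −4 relative to the start. The *Irf2* window held a tandem GAAA match, a GAS match, and a κB match. The *Irf8* window held 2 GAS matches, from −171 to −163 and from −153 to −145, and 0 matches of the other motifs. Over all 32851 such windows, 7.13% held the tandem GAAA core, 7.02% the GAS letters, 3.9% the κB consensus and 5.27% the PU.1 core. A match is a description of letters, and the other windows of these 8 genes, *Irf7* among them, lack these letters only within the stretch searched.

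To ask which IRF genes respond to TLR4 stimulation, LPS was compared with untreated cells. LPS raised 5 of the 8 genes, *Irf1*, *Irf2*, *Irf5*, *Irf7* and *Irf8*, and lowered 0, against 7.98% of all genes called higher and 12.8% called lower. *Irf1* rose furthest, 14.9-fold, followed by *Irf7* (3.93-fold), *Irf8* (2.67-fold), *Irf2* (2.38-fold) and *Irf5* (1.63-fold). The median log2 difference of the 8 genes was 0.98, beside 0.0016 for all genes.

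**Figure D1:**
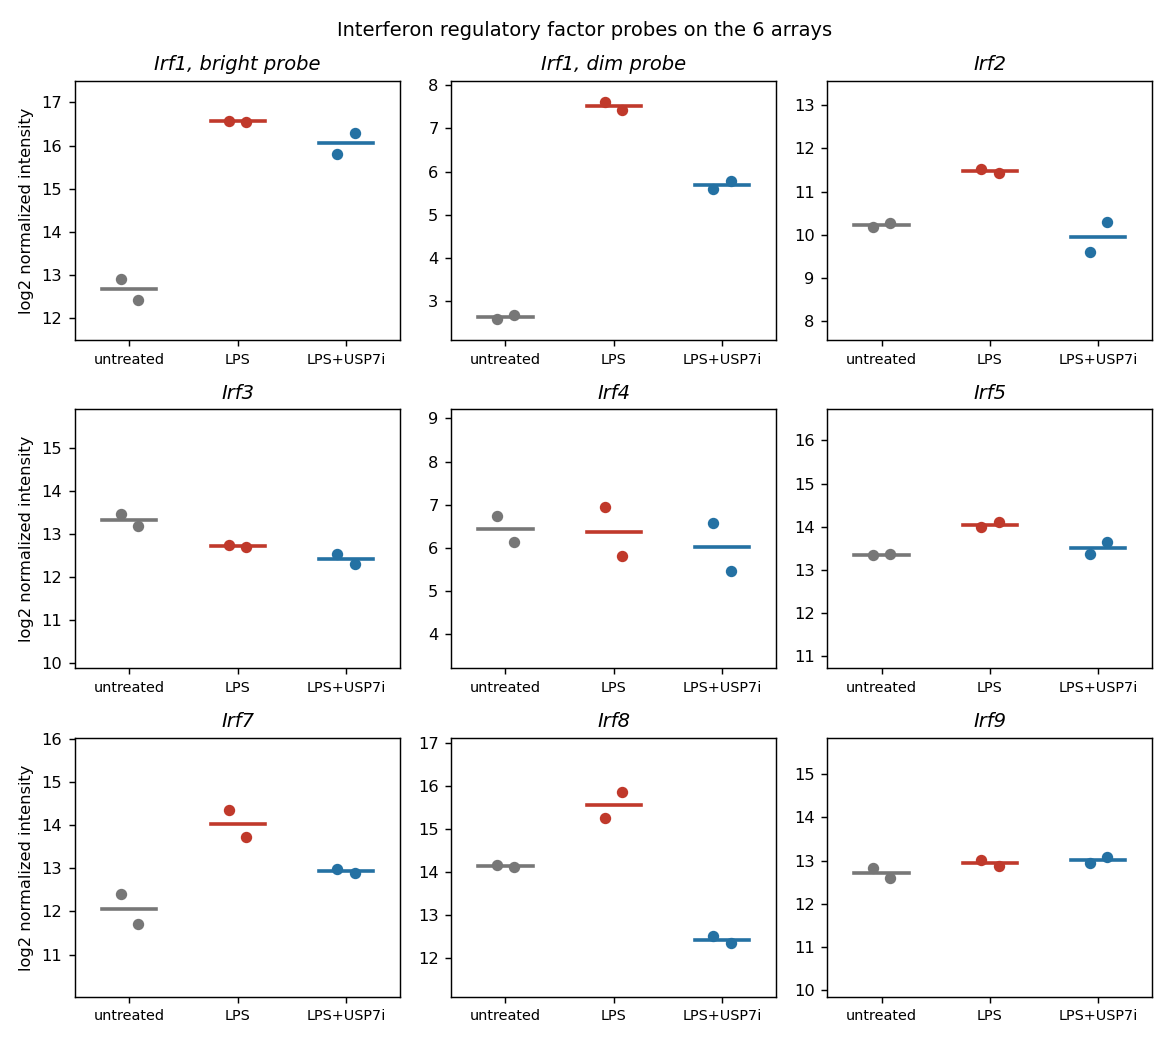
Log2 normalized intensity of the 9 IRF probes (vertical axes, each panel with its own level but at least the same span) on the 2 arrays of each group (points), with the group mean as a line. *Irf8* with LPS+USP7i lies below both other groups, and the dim *Irf1* probe in untreated cells was not well above background.

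*Irf1* encodes an activator of interferon-γ-type and inflammatory genes that is itself made in response to stimulation. Its bright probe read 12.92 and 12.41 in untreated cells and 16.58 and 16.55 after LPS, so the groups were far apart. The log2 difference was 3.90 (SE 0.25, adjusted p = 0.00446, limma), and 263 of the 2775 genes raised by LPS rose further. The dim probe was not well above background on either untreated array (2.59 and 2.67) and read 7.61 and 7.44 with LPS. Set against the lowest signal above background on each untreated array, this was a rise of at least 12.2-fold, or 3.61 on the log2 scale (adjusted p = 0.00227). This bound and those below hold for these processed signals alone, and the log2 rise of the dim probe was 2.93 on the deposited values and 1.71 with normexp background correction.

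*Irf7*, the master regulator of the interferon-α response, read 12.41 and 11.70 in untreated cells and 14.34 and 13.72 after LPS. Its untreated arrays differed by more than those of most other members, yet both lay below both LPS arrays. The log2 difference was 1.98 (SE 0.34, adjusted p = 0.0301). *Irf8* read 14.17 and 14.11 in untreated cells and 15.25 and 15.87 after LPS, a log2 difference of 1.42 (SE 0.23, adjusted p = 0.0267). Here the LPS arrays were the more variable, and neither came near the untreated values.

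*Irf2*, which encodes a factor that competes with IRF1 for the same sites, rose from 10.17 and 10.28 to 11.53 and 11.42 (log2 difference 1.25, SE 0.26, adjusted p = 0.0481). *Irf5*, which encodes a factor that drives inflammatory cytokine genes downstream of MyD88, rose from 13.33 and 13.36 to 14.00 and 14.10 (log2 difference 0.70, SE 0.12, adjusted p = 0.0283). Both rises were smaller than that of *Irf1* and larger than the gap between replicates.

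The other 3 genes did not pass the test. *Irf3*, the factor activated first after TLR4 signals through TRIF, read 13.47 and 13.18 in untreated cells and 12.75 and 12.70 after LPS, a log2 difference of −0.60 (95% interval −1.0 to −0.21, adjusted p = 0.0666). *Irf9* read 12.84 and 12.60, then 13.01 and 12.88, a difference of 0.23 (95% interval −0.10 to 0.56, adjusted p = 0.339). For both genes the LPS arrays lay on one side of the untreated arrays, by little for *Irf9*.

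*Irf4*, which is tied to alternative activation in macrophages and to B and plasma cells, had the largest standard error of the 8 genes (0.60), although *Irf7* varied more between the untreated arrays. It read 6.74 and 6.15 in untreated cells, 6.95 and 5.81 after LPS, and 6.57 and 5.47 under LPS+USP7i, and was well above background on all 6 arrays. Replicate 1 was higher than replicate 2 in all 3 groups, and all groups overlapped. The difference with LPS was −0.07 with a 95% interval from −1.72 to 1.58, so changes of up to about that size were not detectable with 2 arrays a group. Of 5 B cell markers, 2 were well above background on all arrays, *Cd79a* and *Cd79b*, and both were higher in replicate 1 in all groups. *Cd79a* read 6.49 and 5.47, 7.67 and 6.00, and 7.16 and 5.50 in the same order. *Ms4a1* read 6.66 and 2.67, 7.93 and 5.25, and 7.08 and 4.61. It was not well above background in replicate 2 of the untreated and LPS+USP7i cells. *Pax5* was higher in replicate 2 under LPS+USP7i (4.86 and 5.07). These B cell markers were named after their values were seen. The part of B cells in the *Irf4* values was not tested.

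The calls depended on the arrays in the fit and on the processing. With any 1 array left out, which leaves 1 array in its group, fewer of the 5 genes were called. The share of all genes called also fell from 20.7% in each such fit. Over the 15 alternatives the log2 rise ran from 3.65 to 4.40 for *Irf1* and 1.16 to 1.40 for *Irf2*. It ran from 0.65 to 1.22 for *Irf5*, 1.62 to 2.39 for *Irf7* and 1.11 to 1.97 for *Irf8*. In this order the 5 genes were called in 15, 10, 10, 8 and 9 of the alternatives. With the replicate number, which is also a slide position, as a block, *Irf2* (adjusted p = 0.0654) and *Irf8* (0.0518) lost their call and *Irf3* was called lower (0.0408). *Irf3* was called lower in 4 of 15 alternatives. The others were dim probes left out (adjusted p = 0.0315), normexp background correction (0.0197) and a trended prior. On the deposited values *Irf5* was not called. The rises within replicates 1 and 2 were 1.36 and 1.14 for *Irf2* and 1.08 and 1.75 for *Irf8*. Scaling on the 75th percentile in place of quantile normalization moved the median of all genes by 0.40 and the share of called genes that were higher from 38.4% to 75%, and under it *Irf3* read −0.13 and *Irf9*, at 0.68, was called higher.

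**Figure D2:**
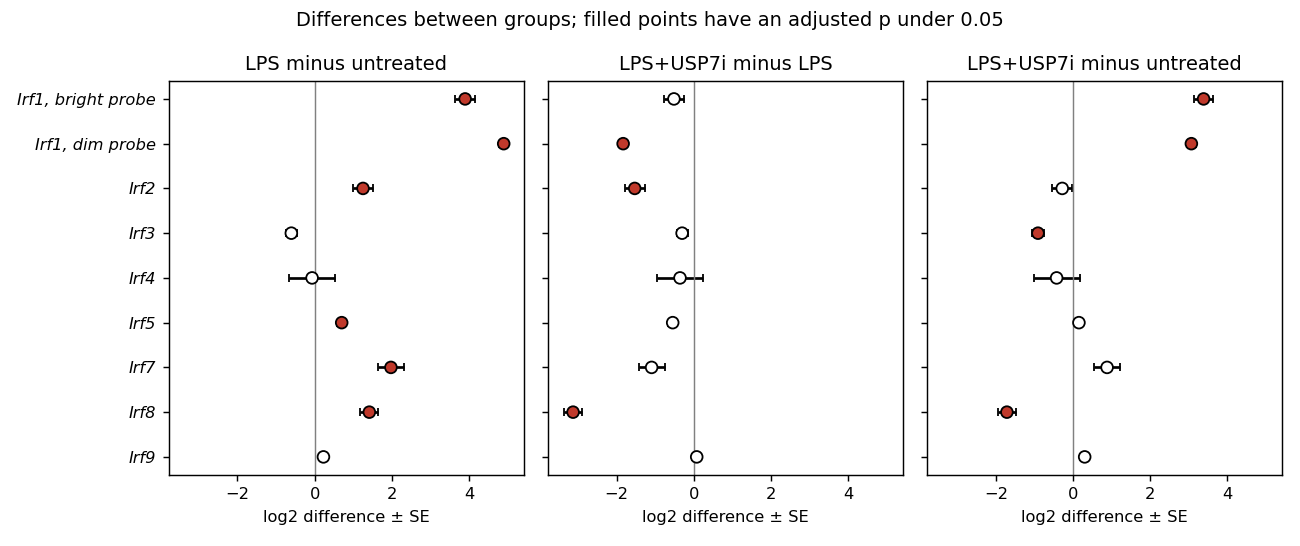
Log2 differences of the 9 IRF probes (horizontal axes) with their standard errors from limma (bars) in the 3 comparisons (panels), filled where the adjusted p was under 0.05. *Irf8* stands at −3.13 in LPS+USP7i minus LPS, and the 2 *Irf1* probes at −0.51 and −1.83 there.

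To ask how USP7 inhibition alters these genes during stimulation, LPS+USP7i was compared with LPS. *Irf8* and *Irf2* were lower with the inhibitor and 0 of the 8 genes were higher, against 4.27% of all genes called lower and 5.52% called higher. These shares include dim genes, and with dim probes left out 2362 of 18347 genes were lower and 2780 higher. Both genes were also raised by LPS. Of the 2775 genes that LPS raised, 723 had the calls of *Irf2* over the 3 comparisons and 31 those of *Irf8*. *Irf8* fell 8.75-fold and *Irf2* 2.89-fold. The median log2 difference of the 8 genes was −0.53, beside 0.00091 for all genes. This comparison and the previous one share the LPS arrays, so their values are not independent of each other.

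*Irf8* read 15.25 and 15.87 after LPS and 12.51 and 12.35 under LPS+USP7i, a log2 difference of −3.13 (SE 0.23, 95% interval −3.77 to −2.49, adjusted p = 0.0144). Between arrays of the same replicate number the differences were −2.74 and −3.52. Both LPS+USP7i arrays lay below every other array, untreated ones included. Of the 1485 genes lower with the inhibitor, 69 fell further than *Irf8*. The difference stayed between −3.44 and −2.82 over 15 alternatives and was called in 12 of them, with adjusted p from 0.000398 to 0.0622. It was not called in the fit of the 2 groups alone (adjusted p = 0.0622), without untreated replicate 1 (0.0622) or without untreated replicate 2 (0.0622), although its size is the same in all 3, and in these 3 fits 0% of all genes were called (smallest adjusted p = 0.0561).

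Among markers of plasmacytoid dendritic cells, which also make IRF8, 3 of 4 were well above background on all arrays. *Tcf4*, of the same list, read 11.39 and 11.16 in untreated cells, rose by 1.19 with LPS (adjusted p = 0.0136) and fell by 1.49 with the inhibitor (adjusted p = 0.0193), the directions seen for *Irf8*. Against untreated cells *Tcf4* under LPS+USP7i was not called (−0.31, adjusted p = 0.316), unlike *Irf8*. *Siglech* differed by −0.73 with LPS (adjusted p = 0.122) and by 0.75 with the inhibitor (adjusted p = 0.149). *Pacsin1* differed by −0.04 and −0.006 in the same order. *Ccr9*, not well above background on either untreated array, differed by 2.61 (adjusted p = 0.0224) and −1.315 (adjusted p = 0.153). Sums of processed signal were again taken before normalization. For the 4 markers they ran from 49888 to 58916 in untreated cells, 36994 to 43339 after LPS and 43654 to 48697 under LPS+USP7i. For the 6 dendritic cell markers they ran from 1499 to 1571, 1063 to 1603 and 822 to 836. *Ccr7* was the largest part of the sum of the 6. Its inhibitor arrays overlapped its LPS arrays (difference −0.57, adjusted p = 0.541, limma). *Siglech* was the largest part of the sum of the 4. The part of such cells in the *Irf8* values was not tested. These marker genes were named after their values were seen.

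*Irf2* read 11.53 and 11.42 after LPS and 9.59 and 10.30 under LPS+USP7i (log2 difference −1.53, SE 0.26, adjusted p = 0.0492). The inhibitor arrays differed from each other by more than the LPS arrays did, and both lay below them. Over the alternatives the difference ran from −1.89 to −1.18 and was called in 9 of 15, so this call lies at the threshold. With the replicate block it was not called (adjusted p = 0.0713), and the falls within replicates 1 and 2 were 1.94 and 1.12.

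The 2 *Irf1* probes are given apart. On the bright probe the inhibitor arrays read 15.80 and 16.29 against 16.58 and 16.55 with LPS, a difference of −0.51 (95% interval −1.21 to 0.18, adjusted p = 0.371). On the dim probe they read 5.59 and 5.79 against 7.61 and 7.44, a 3.56-fold fall (log2 difference −1.83, SE 0.11, adjusted p = 0.0120). The gap between the probes' differences was 1.24 in replicate 1 and 1.39 in replicate 2, and it is a description, since with 2 arrays in each group the smallest two-sided p of an exact permutation test is 0.333. With both probes averaged *Irf1* was called lower, with a difference of −1.17 (adjusted p = 0.0252). With normexp background correction the dim probe differed by −1.01 and stayed called. The brighter probe was taken for the counts above.

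The other members did not pass the test. *Irf7* read 12.98 and 12.89 with LPS+USP7i, below both LPS arrays and above both untreated arrays, and differed from LPS by −1.09 (95% interval −2.03 to −0.16, adjusted p = 0.162). *Irf5* read 13.36 and 13.64, a difference of −0.55 from LPS (95% interval −0.87 to −0.22, adjusted p = 0.0768). For these 2 genes the interval leaves out 0 while the p adjusted over all probes misses the threshold. *Irf5* was called with dim probes left out (adjusted p = 0.0440) and without LPS+USP7i replicate 2 (0.0456).

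*Irf3* read 12.54 and 12.30 with LPS+USP7i and differed from LPS by −0.30 (95% interval −0.70 to 0.09, adjusted p = 0.350). *Irf9* read 12.95 and 13.09 and differed by 0.08 (95% interval −0.25 to 0.40, adjusted p = 0.807). For its transcript this interval leaves out changes as large as those called in *Irf8* and *Irf2*. *Irf4* differed by −0.36, with an interval from −2.01 to 1.29 that holds changes as large as that of *Irf2*. With an LPS or an untreated array left out, fewer of the 8 genes were called by limma. The share of all genes called also fell in each such fit from the 9.79% with all arrays. Over the 15 alternatives the difference of *Irf8* ran from −3.44 to −2.82 and that of *Irf2* from −1.89 to −1.18.

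**Figure D3:**
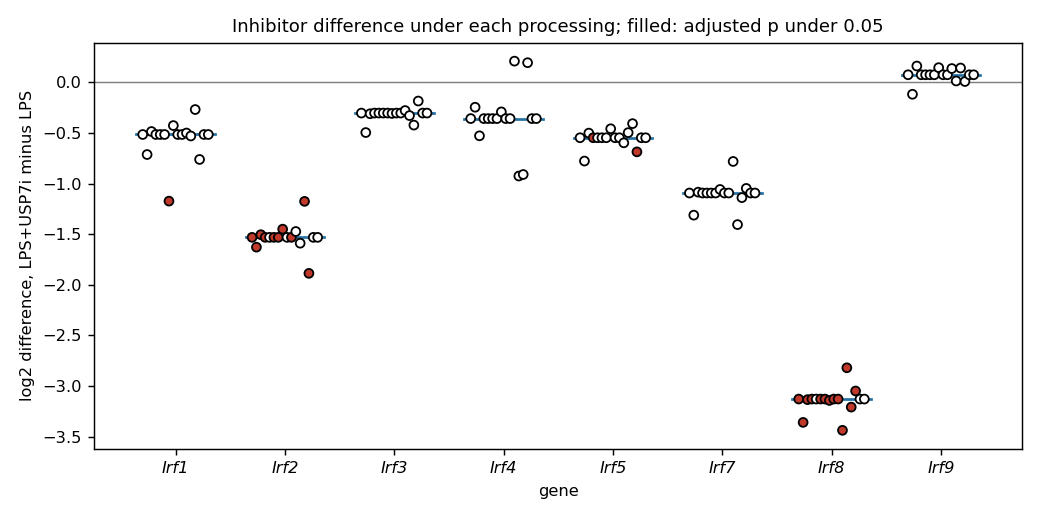
Log2 difference between LPS+USP7i and LPS for each IRF gene (horizontal axis) under the main processing and 15 alternatives (points, filled where the adjusted p was under 0.05), with the main value as a line. *Irf8* stays between −3.44 and −2.82, apart from the other 7 genes, while *Irf4* and *Irf9* lie on both sides of 0.

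Comparing LPS+USP7i with untreated cells showed where each gene stood once both agents were present. *Irf1* was higher, *Irf3* and *Irf8* were lower, and the other 5 genes were not called, against 6.16% of all genes called higher and 8.71% called lower. *Irf1* stayed 10.4-fold above untreated cells (log2 difference 3.38, SE 0.25, adjusted p = 0.00818). *Irf8* was 3.28-fold below them (log2 difference −1.71, SE 0.23, adjusted p = 0.0223), so its level passed from above to below the untreated level between the LPS and the LPS+USP7i cells.

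*Irf3* was 1.88-fold below untreated cells (log2 difference −0.91, SE 0.14, adjusted p = 0.0315), and its 2 inhibitor arrays lay below all other arrays. *Irf7* was above both untreated arrays, by 0.88 (95% interval −0.05 to 1.82, adjusted p = 0.220). *Irf2* overlapped its untreated values (difference −0.28, 95% interval −1.0 to 0.44, adjusted p = 0.628), and *Irf5* exceeded them by 0.15 (95% interval −0.17 to 0.48, adjusted p = 0.548). *Irf9* differed by 0.30 (95% interval −0.02 to 0.63, adjusted p = 0.229) and *Irf4* by −0.42 (95% interval −2.07 to 1.23, adjusted p = 0.784). With any 1 array left out, fewer IRF genes were called, and the share of all genes called fell from 14.9% in each such fit. Over the 15 alternatives the log2 difference ran from 3.13 to 3.68 for *Irf1*, called in all 15. It ran from −1.05 to −0.63 for *Irf3*, called in 8, and from −1.79 to −1.39 for *Irf8*, called in 11. Under 75th percentile scaling 5 genes were called, with *Irf7* and *Irf9* added as higher, while the median of all genes moved by 0.44 and the share of higher genes among the called from 41.4% to 78.4%.

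Read over the 3 comparisons in the order given, *Irf8* was called higher, lower and lower. This combination was shared by 31 of 34787 genes (0.0891%), itself included, among which were *Tyk2*, *Ticam2* and *Stat5b*, named here after their values were seen. *Irf2*, called higher, then lower, then not called, shared its combination with 2.08% of genes. *Irf1*, called higher, not called and higher, shared it with 2.38%, and *Irf5* and *Irf7*, called in the first comparison alone, with 2.32%. *Irf3* (1.3%) was called in the last comparison alone, and *Irf4* and *Irf9*, like 73.9% of genes, in none.

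**Figure D4:**
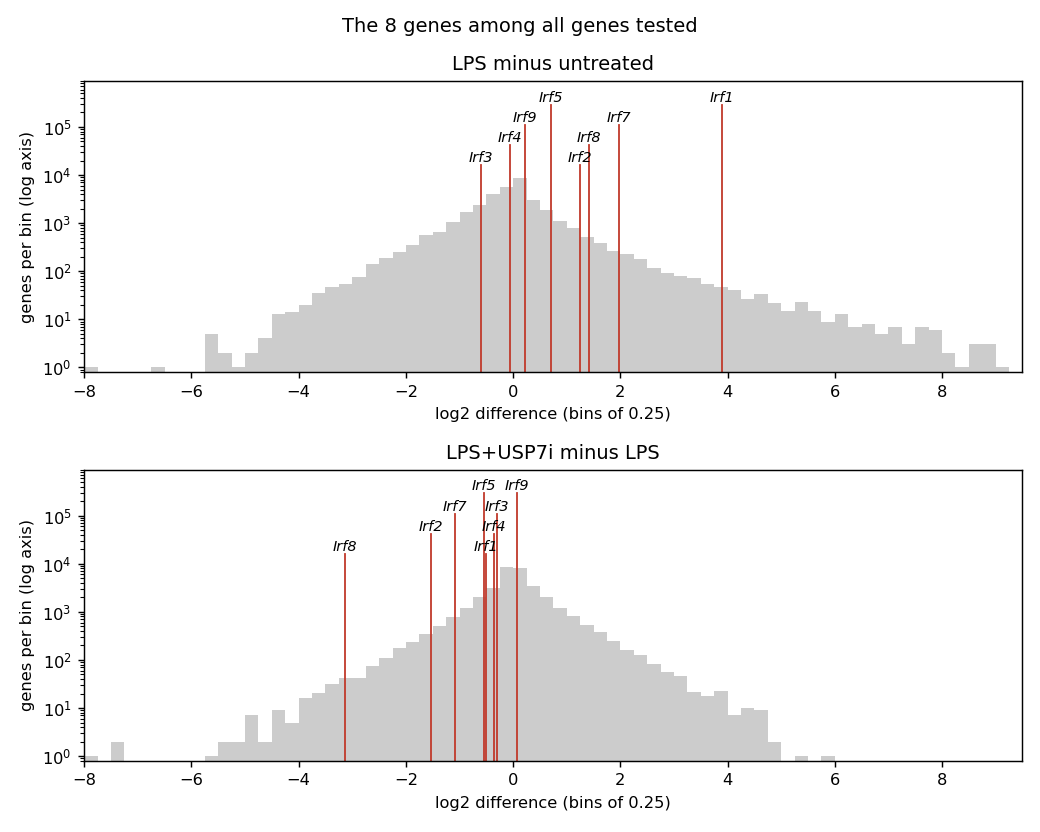
Log2 differences of all 34787 genes (grey bars, genes per bin of 0.25 on a log axis) in LPS minus untreated (top) and LPS+USP7i minus LPS (bottom), with the 8 IRF genes as labelled lines. *Irf1* stands at 3.90 at the top and *Irf8* at −3.13 at the bottom, with 69 genes called lower beyond it.

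The genes with the most similar course were sought for the 6 members called in any comparison, by the root mean square (RMS) difference of centred log2 values over the 6 arrays among 11076 genes. *Irf8* was closest to *Atm* (RMS 0.34) and *Osbpl3* (0.36), at a greater distance than any other member had to its own nearest gene. *Irf1* was closest to *Isg15* (0.14) and *Ehd1* (0.17), and *Irf7* to *Ifi35* (0.16) and *Myd88* (0.16). The nearest genes were *Rnf214* and *Xrn1* for *Irf2*, *Ssh3* and *Tmem268* for *Irf3*, and *Pank2* and *Cnot7* for *Irf5*, at 0.03 to 0.08.

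Genes around the IRFs were taken from lists, and for each the counts called are given beside the shares of all genes above. Those shares are over all genes tested, dim ones included, and not over genes raised by LPS. Of 28 genes of the signalling that activates IRF3, IRF5 and IRF7, LPS raised 13 and lowered 6 (median 0.51), and 11 were lower and 1 higher with the inhibitor (median −0.23). The RNA sensor genes *Ifih1* and *Tlr3* and the TBK1-binding adaptor gene *Tank* rose by 4.00, 3.27 and 2.83 with LPS. *Tlr4*, the LPS receptor gene, fell by 0.80 (adjusted p = 0.0305) with LPS and differed by 0.51 with the inhibitor (adjusted p = 0.124).

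With the inhibitor *Ticam2*, the gene of TRAM, the adaptor that links TLR4 to TRIF and IRF3, dropped to readings not well above background on both arrays, from 7.17 and 7.34 with LPS, a fall of at least 7.87-fold (adjusted p = 0.0183). *Tlr3* fell by 2.39 and *Ikbke*, the gene of an IRF3 and IRF7 kinase, fell by 1.64.

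Of 14 genes of interferon β, its receptors and ISGF3, LPS raised 8 and lowered 1 (median 1.01), and 7 were lower and 0 higher with the inhibitor (median −1.22). *Ifnb1*, the IRF3 and IRF7 target that encodes interferon β, read 4.80 and 4.34 in untreated cells, where 1 of 2 arrays was well above background, 12.01 and 12.85 after LPS, and 12.87 and 12.52 under LPS+USP7i. It rose by 7.86 with LPS (SE 0.36, adjusted p = 0.00317), and its inhibitor arrays overlapped the LPS arrays (difference 0.26, 95% interval −0.73 to 1.26, adjusted p = 0.766). The feedback inhibitor genes *Socs3* and *Socs1* rose by 7.91 and 7.45. With the inhibitor the kinase genes *Jak2* and *Tyk2* and the ISG15 protease gene *Usp18* fell by 2.24, 1.67 and 1.75.

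*Stat2*, the gene of an ISGF3 partner of IRF9, rose by 1.04 with LPS (adjusted p = 0.0151) and differed by −0.56 with the inhibitor (adjusted p = 0.0943). *Irf9* itself was called in neither comparison.

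Of 19 partners and regulators of IRFs, LPS raised 7 and lowered 6 (median −0.23), and 4 were lower and 2 higher with the inhibitor (median −0.23). *Spi1*, the gene of the IRF8 and IRF4 partner PU.1, read 10.57 and 10.49 in untreated cells, 12.08 and 11.66 after LPS, and 10.98 and 10.76 under LPS+USP7i. It rose by 1.34 with LPS (adjusted p = 0.0162), and the inhibitor arrays lay below both LPS arrays with a difference that just missed the threshold (−1.0, SE 0.18, adjusted p = 0.0526). Unlike *Irf8*, it did not fall below its untreated values.

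*Irf2bp2*, the gene of a corepressor that binds IRF2, read 14.15 and 13.98 in untreated cells, 9.13 and 9.0 after LPS, and 12.29 and 11.89 under LPS+USP7i. It fell by 5.0 with LPS (adjusted p = 0.00258) and was 3.03 higher with the inhibitor (adjusted p = 0.0113), in each case opposite to *Irf2*. The lymphoid and myeloid factor genes *Ikzf1* and *Etv6* rose by 3.82 and 3.66 with LPS and fell by 3.24 and 2.32 with the inhibitor, and *Batf2*, the gene of an IRF1 partner, rose by 4.69.

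**Figure D5:**
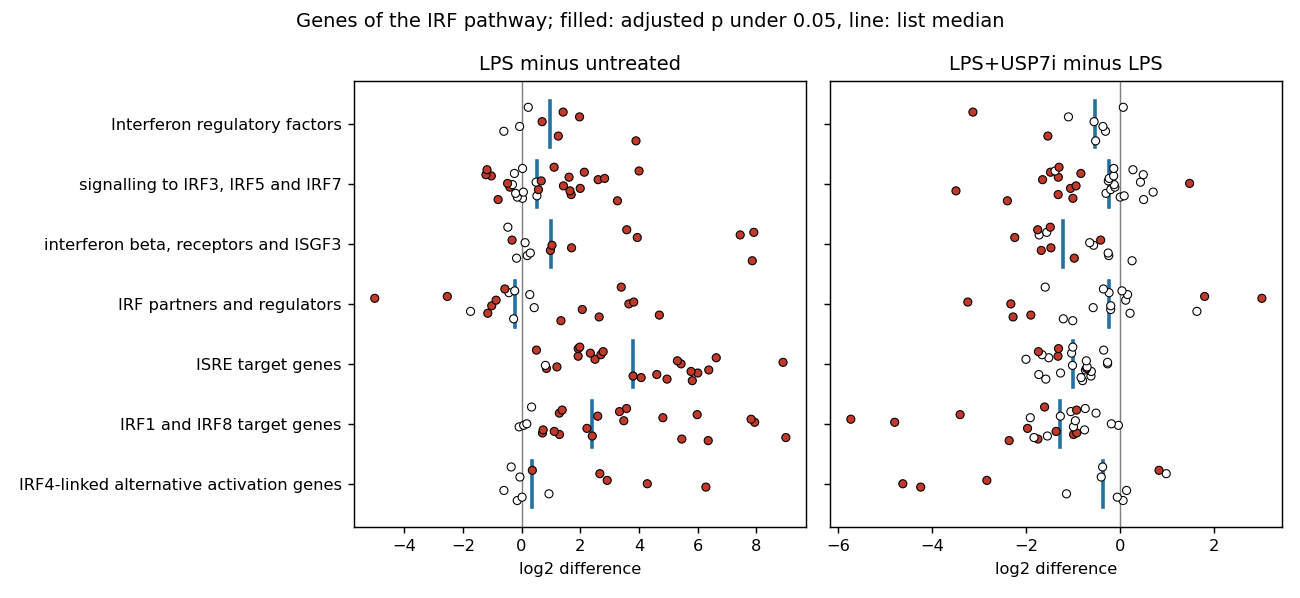
Log2 differences (horizontal axes) of the IRF genes and of 6 lists of related genes (rows) in LPS minus untreated (left) and LPS+USP7i minus LPS (right). Points are genes, filled where the adjusted p was under 0.05, and the line is the list median, which for ISRE targets was 3.80 on the left and −1.0 on the right.

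Of 23 ISRE target genes LPS raised 22 and lowered 0 (median 3.80), led by the chemokine gene *Cxcl10* (8.91) and the antiviral genes *Cmpk2* (6.63) and *Rsad2* (6.38). With the inhibitor 4 were lower and 0 higher (median −1.0), and *Cxcl10* differed by −0.26 (adjusted p = 0.746). Before normalization *Cxcl10* read 320149 and 335729 after LPS and 199721 and 289178 under LPS+USP7i, while its normalized replicate 2 values were equal. The largest falls among the 4 called were those of *Eif2ak2*, which encodes the RNA-activated kinase PKR (1.73, adjusted p = 0.0219), *Xaf1* (1.32, adjusted p = 0.0213) and *Dhx58* (1.31, adjusted p = 0.0372), while *Ifi44*, not called and named here after its values were seen, differed by −2.0 (adjusted p = 0.0655).

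Of 23 genes known as IRF1 and IRF8 targets LPS raised 19 and lowered 0 (median 2.41), and 11 were lower and 0 higher with the inhibitor (median −1.27). With LPS *Gbp5*, of the guanylate-binding proteins, rose by 9.0, *Nos2*, of inducible nitric oxide synthase, by 7.94 and the cytokine gene *Il12b* by 7.82. With the inhibitor *Il12b*, *Nos2* and *Il27*, of the cytokine IL-27, fell by 5.73, 4.79 and 3.40. *Fcgr1*, an interferon-induced Fc receptor gene on the same list and a macrophage marker, was 1.60 lower than with LPS (adjusted p = 0.0317) and 1.26 lower than in untreated cells (adjusted p = 0.0374), named here after its values were seen. The ISRE and IRF1/IRF8 lists differ in their counts, and that difference was not tested.

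Of 11 genes linked to IRF4 in alternative activation LPS raised 5 and lowered 0 (median 0.37), and 3 were lower and 1 higher with the inhibitor (median −0.37). The chemokine genes *Ccl17* and *Ccl22*, not well above background in untreated cells, rose at least 57.5-fold and at least 6.65-fold with LPS. With the inhibitor *Ccl17* fell by 4.24 and *Ccl22*, again not well above background on either array, fell at least 5.15-fold. *Ccl24* rose by 2.92 with LPS and fell by 2.83 with the inhibitor. *Irf4* itself was called in none of the comparisons, and its probe's spread is that given above.

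The counts over the 119 listed genes moved with the arrays used. In LPS+USP7i minus LPS 44 were called (9.79% of all genes), 6 and 7 without LPS replicate 1 or 2 (3.78% and 3.57% of all genes), and 18 without LPS+USP7i replicate 1 (5.03%). Without either untreated array 0 were called (0% of all genes), and with dim probes left out 70 (28% of the genes kept). In LPS minus untreated 87 were called (20.7% of all genes), 55 without LPS replicate 1 (11.4%) and 54 without untreated replicate 2 (8%).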

How the data were processed

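RNA from 6 BMDM cultures was hybridized to Agilent mouse arrays. The authors deposited scanner files, with intensity values after the background subtraction of Feature Extraction, and log2 values quantile-normalized with limma, whose background correction is unstated. The log2 table was an alternative here (medians 5.07 to 5.10, and r = 0.999972 with normexp-corrected, quantile-normalized median signals). It holds no comparisons of the authors' own.

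Processed signals were taken to log2 and quantile-normalized over non-control spots, spots flagged as outliers (119 to 172 an array) were left out, and spots of a probe were averaged. All 3 groups entered 1 linear model (limma 3.58.1, R 4.3.3; 3 residual degrees of freedom), with Benjamini-Hochberg adjustment over 55680 probes and a threshold of 0.05. A gene was represented by its brightest probe. Replicates correlated with r = 0.996, 0.993 and 0.991 (untreated, LPS, LPS+USP7i). With 2 arrays a group, their number limits precision. Symbols follow RefSeq through accessions (26762 probes), symbols (3819) or synonyms (639), otherwise the array (24461).

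The 8 genes, the lists and the tests were chosen with earlier results of these data known. Named were all 8 genes with every probe, *Usp7*, *Ifnb1*, *Stat2*, *Spi1* and *Tlr4*, up to 3 called genes a list with the largest difference in the first and second comparison, and the 2 nearest genes of each called member, with exceptions said in place. Of the 119 listed genes, 2 enter the counts but are not reported here. Macrophage, dendritic cell, plasmacytoid dendritic cell, B cell, T cell, neutrophil and fibroblast markers were read: 8 of 8, 1 of 6, 3 of 4, 2 of 5, 3 of 5, 4 of 6 and 0 of 5 were well above background on all arrays. Alternatives were 75th percentile scaling, normexp with offset 50, the deposited values, a filter on dim probes, a trended prior, flagged spots retained, 2-group fits, a replicate block, each array left out, the mean of a gene's probes, and a minimum log2 difference of 1. The script was tested on simulated data.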

Additional observations from a re-analysis of the deposited data

How the results depend on the processing

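For the 8 genes and the dim *Irf1* probe, 402 values were computed under alternatives. Of the 192 for results called here, 146 stayed called and 46 did not, with 0 reversed, and of the 210 for results not called, 10 were called and 7 others changed sign. Alternatives for the gene lists and the dim probe were chosen after seeing the data. In the fit of 2 groups alone 3 IRF genes were called with LPS (main 5), 0 with the inhibitor against LPS (main 2, with 4 at an unadjusted p under 0.05), and among the listed genes 0 in that comparison (main 44), where 0% of all genes were called (smallest adjusted p = 0.0561), and 37 in LPS+USP7i minus untreated (main 63). With 75th percentile scaling 5 IRF genes were called in LPS+USP7i minus untreated (main 3), and 12150 genes in all were higher with LPS in place of 2775. Listed genes called with the inhibitor against LPS were 70 with dim probes left out and 74 with normexp (28% and 15.1% of the genes tested). The cause of these changes was not tested, apart from the fewer arrays or probes each holds. Leaving out 1 array gave 1 to 3 IRF genes with LPS, 0 to 3 with the inhibitor against LPS and 1 to 2 in LPS+USP7i minus untreated, and 54 to 79, 0 to 34 and 18 to 46 listed genes in the same order. A group left with 1 array borrows the spread of the rest.

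The labels do not say that a replicate number marks a shared experiment, and it equals a slide position index. With a replicate block 4 IRF genes were called with LPS (*Irf1*, *Irf5* and *Irf7* higher, *Irf3* lower), 1 with the inhibitor against LPS (*Irf8*, adjusted p = 0.0383) and 3 in LPS+USP7i minus untreated, and 29 listed genes in place of 44 with the inhibitor against LPS. Deviations of same-numbered arrays correlated with r = 0.47, 0.40 and 0.42 between the 3 pairs of groups, across probes. Only 2 arrays a group limit all values, and probes near background limit the dim *Irf1* probe, whose rise with LPS was 1.71 with normexp and 2.93 on the deposited values, both under its bound of 3.61.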
